A study of Mus musculus with 4 samples.

Results

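Regions of Deaf1 occupancy that lie at the ends of neighbouring genes were examined in C2C12, an established mouse cell line of myoblasts, the precursors of muscle fibres. A region belonged to the set when at least 1 bp of it lay within 1 kb of the first or last base of 2 or more different protein-coding genes. Of the 1545 regions on chromosomes 1 to 19 and X in the authors' combined list, 343 (22.2%) met this rule. A further 906 regions lay near an end of exactly 1 protein-coding gene and 296 lay near none. The rule used distance to gene ends, and neither strength nor sequence.

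The study profiled Deaf1 by chromatin immunoprecipitation and sequencing (ChIP-seq) in 4 libraries of 1 culture condition with no treatment named (DMEM with serum, penicillin and streptomycin). Both ChIP libraries, replicates 1 and 2, used an antibody against Deaf1, and each had an input library made without antibody. Nothing in the labels says whether the replicates came from separate cultures, and the labels describe formaldehyde fixation yet also call the assay native. Peaks of the inputs alone were not analysed here. With 1 condition there was no contrast between groups of samples, and no test was run over regions, which are not replicates. Differences between sets of regions are given below as values and were not tested.

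Deaf1 is a transcription factor that contacts DNA through its SAND domain, which is known to read a short core, TTCG, and to prefer its CpG unmethylated. Many mammalian genes start back to back with a neighbour on the opposite strand, so that a single CpG-rich stretch of promoter serves transcription in both directions. Such pairs are rich in housekeeping genes of the mitochondrion, the ribosome, RNA processing and DNA repair. ETS-family factors such as GABPA, which read a GGAA core, are known to bind many promoters of this kind.

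The DNA under 8 of the regions is shown because these regions held the strongest signals or lay at genes of autophagy, the proteasome and DNA repair. Each stretch is 121 bases of RefSeq sequence (GRCm38.p6, + strand, 5′ to 3′) centred on the replicate 2 summit, the position where most fragments were stacked. Capitals mark CGGAAG or its reverse complement CTTCCG, the core of the ETS motif, which was picked after short words near the summits had been counted.
Acin1 and 1700123O20Rik, chr14:54686904-54687024: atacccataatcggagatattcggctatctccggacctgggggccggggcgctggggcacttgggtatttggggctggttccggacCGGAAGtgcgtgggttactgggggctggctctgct
Pik3r2 and Mast3, chr8:70776737-70776857: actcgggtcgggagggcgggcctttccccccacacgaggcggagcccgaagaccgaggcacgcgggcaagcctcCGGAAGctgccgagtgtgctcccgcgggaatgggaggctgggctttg
Ndufs1 and Eef1b2, chr1:63176667-63176787: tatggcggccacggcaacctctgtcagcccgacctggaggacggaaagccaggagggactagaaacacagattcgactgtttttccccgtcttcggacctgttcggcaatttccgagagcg
Mta2 and Eml3, chr19:8941826-8941946: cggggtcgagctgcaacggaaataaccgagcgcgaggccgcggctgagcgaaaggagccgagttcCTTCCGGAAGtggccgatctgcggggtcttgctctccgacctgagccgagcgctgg
Gskip and Atg2b, chr12:105685274-105685394: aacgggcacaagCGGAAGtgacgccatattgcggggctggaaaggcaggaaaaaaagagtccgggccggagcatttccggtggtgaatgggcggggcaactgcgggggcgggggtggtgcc
Rnf31 and Psme2, chr14:55591646-55591766: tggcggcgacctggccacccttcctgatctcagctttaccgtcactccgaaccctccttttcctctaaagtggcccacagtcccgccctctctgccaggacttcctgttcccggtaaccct
Fancd2 and Emc3, chr6:113531596-113531716: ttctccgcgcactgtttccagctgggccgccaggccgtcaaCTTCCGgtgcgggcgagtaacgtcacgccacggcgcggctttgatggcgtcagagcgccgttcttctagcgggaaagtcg
Tmem167 and Xrcc4, chr13:90089637-90089757: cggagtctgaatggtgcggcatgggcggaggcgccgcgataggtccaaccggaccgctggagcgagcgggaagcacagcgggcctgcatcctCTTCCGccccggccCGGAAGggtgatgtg

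Of these 8 stretches, 6 held CGGAAG on either strand. Those at Mta2 and Xrcc4 held 2 matches each, and in the former the matches overlap as a palindrome. The stretches at Ndufs1 and Psme2 held none. That at Ndufs1 held TTCG or its reverse complement CGAA 3 times. TTCG or CGAA occurred 1 time each in the stretches at Acin1, Pik3r2, Mta2 and Psme2, and at no position in those at Atg2b, Fancd2 and Xrcc4. A match is a description of letters, and does not show which protein was bound there.

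Strength was read from each replicate's own peak list, as the fold enrichment over local background of the strongest overlapping peak. The median fold enrichment of the 343 regions was 7.84 in replicate 1 (interquartile range 6.03 to 10.2) and 8.83 in replicate 2 (6.79 to 11.3). The lowest and highest folds were 3.03 and 42.7 in replicate 1, and 3.23 and 47.9 in replicate 2. A median of 26 fragments stood at the summit in replicate 1 and 34 in replicate 2, so a typical member rested on few fragments. By mean fold over the replicates, 7 regions reached 20 or more, 93 lay between 10 and 20, 223 between 5 and 10, and 20 below 5. The regions near 1 gene end had median folds of 7.50 and 8.42, and those near none 6.66 and 7.69. The order of the 3 sets was the same in both replicates, but the sets overlapped over most of their range.

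**Figure D1:**
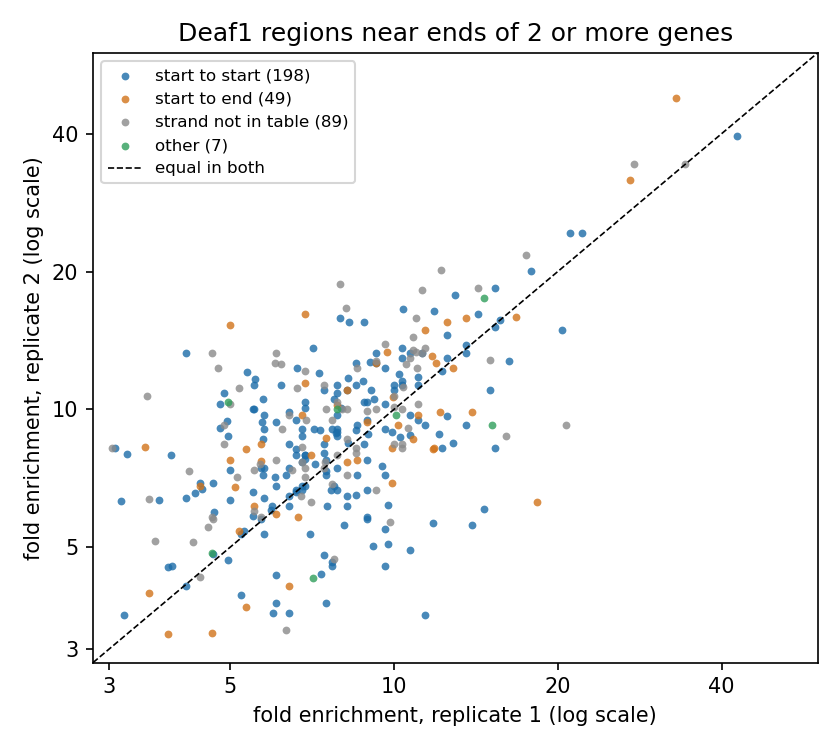
Fold enrichment of each of the 343 regions in replicate 1 (x axis) and replicate 2 (y axis), both on log scales, with each point 1 region coloured by the arrangement of its gene ends. Most points lie above the dashed line of equality, 232 of 343, and 7 regions with a mean fold of 20 or more stand apart at the upper right.

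Fold was higher in replicate 2 for 232 of the regions (67.6%), with a median ratio of replicate 2 to replicate 1 of 1.13 (interquartile range 0.932 to 1.38). It was higher there for 63.5% of regions near 1 gene end and 67.9% of those near none. Across the regions, the log2 folds of the replicates gave Pearson's r of 0.59 and Spearman's rho of 0.51, as a description over regions that share the same pair of libraries. Both were lowest for members: regions near 1 gene end gave r of 0.68 and rho of 0.55, and those near none 0.73 and 0.62. Summits repeated closely, with a median shift of 11 bp between replicates and 92.1% of regions within 50 bp. A score at an irreproducible discovery rate (IDR, the estimated chance that a region's rank does not repeat between replicates) of 0.05 or lower was held by 160 of the 343 regions (46.7%, Wilson 95% interval 41.4 to 51.9). Over all 1545 regions the share was 39.4%. It was 40.5% for regions near 1 gene end and 27.4% for those near none. The authors' lowest score, 121, was shared by 65 of the 343 regions.

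The strongest members had folds well above the medians in both libraries. The region at Acin1, an RNA-binding protein of splicing-associated complexes, had folds of 42.7 in replicate 1 and 39.5 in replicate 2, with 127 and 134 fragments at the summit. Its replicate 2 summit lay 1 bp from the start of Acin1 and 793 bp from that of 1700123O20Rik. The region at Pik3r2, a regulatory subunit of phosphoinositide 3-kinase, had folds of 33.0 and 47.9 and a summit 85 bp from that gene's start, against 1320 bp from the end of Mast3, a kinase gene. At Ndufs1, a core subunit of respiratory complex I, and Eef1b2, a subunit of the exchange factor of translation elongation, the folds were 27.6 and 34.3. The region at Mta2, a subunit of the NuRD chromatin remodelling complex, had folds of 27.1 and 31.7, and its summit lay 34 bp from the Mta2 start and 304 bp from the end of Eml3. All 4 were high in both libraries.

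U2af2, the large subunit of the factor that reads the polypyrimidine tract in splicing, had a member region at each end of its span. The region shared with Ccdc106 was 2983 bp wide, with folds of 34.3 in both replicates but a score of 190 (IDR 0.349). Its replicate 2 summit lay 756 bp from the end of the U2af2 span and 856 bp from the end of Ccdc106, and not between them. The region shared with Epn1, an endocytic adaptor, had folds of 17.5 and 21.7. The remaining regions among the 10 strongest were at Mboat7 and Tsen34 (22.1 and 24.3), at Gm4275 and Ate1 (21.1 and 24.3), at Eif2b1 and Gtf2h3 (17.8 and 20.1) and at Cir1 and Scrn3 (20.3 and 14.9). Tsen34 encodes a subunit of the tRNA splicing endonuclease, Ate1 an arginyl transferase of the N-degron pathway, Eif2b1 a subunit of the exchange factor of translation initiation, and Gtf2h3 a subunit of TFIIH. Replicate 2 was the higher in each of these but Cir1 and Scrn3, as in the whole set.

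Width set some of these regions apart. The median width of members was 198 bp, against 186 bp for regions near 1 gene end and 242.5 bp for regions near none. Only 7 members were wider than 1 kb, and 6 of them were among the 10 strongest. The region at Acin1 spanned 5808 bp, with 7 overlapping peaks in replicate 1 and 1 in replicate 2. Strength and score did not go together here: of the 7 wide regions, 3 had the lowest score, those at Acin1, Pik3r2 and Ndufs1, while Mta2 scored 862 (IDR 0.0084). The highest score of any member, 866, belonged to the region at Epn1 and U2af2, followed by Mta2, then Tatdn1 and Ndufb9 (861), Gm4275 and Ate1 (857), and Eif2b1 and Gtf2h3 (855). Without the wide regions, the median folds of the remaining 336 were 7.73 and 8.75.

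Some regions differed strongly between the libraries. The region at Spata17 and Gpatch2 had folds of 11.4 in replicate 1 and 3.55 in replicate 2, from 31 and 30 fragments over backgrounds of 1.80 and 7.74. At Zc3h10 and Rpl41 the folds were 18.3 and 6.28, and at Dzip3 and Cip2a 13.9 and 5.59. In the other direction, Trub2 and Coq4 had folds of 4.15 and 13.3, Pwp2 and Trappc10 of 5.01 and 15.3, and Wdr25 and Wars of 3.52 and 10.7. In all 6 the local background moved the opposite way to the fold. Fold is a ratio over that background and the 6 were picked by their fold ratios, so this follows in part from the choice. The fragment counts of the regions higher in replicate 1 were 51 and 66 at Rpl41 and 39 and 37 at Cip2a, beside the pair given above. At the regions higher in replicate 2 the counts moved with the fold, from 25 to 40 at Trub2, from 48 to 61 at Pwp2 and from 18 to 32 at Wdr25. The median count of all members was also higher in replicate 2, 34 against 26. At each of these regions the 95% Poisson intervals of the replicates' counts overlapped.

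The arrangement of the genes could be read for 254 of the 343 regions, those whose 2 nearest genes have a strand in the RefSeq promoter table. Start to start, with the genes on opposite strands and their starts nearest to each other, was the most frequent arrangement, with 198 regions (78.0% of the 254). Start to end, where one gene follows another on the same strand, held 49 regions (19.3%). In 1 region the nearest ends were 2 gene ends, and its replicate 2 summit lay outside that pair, 302 bp and 655 bp away. A further 4 lay at same-strand starts and 2 at a start and an end on opposite strands. Of all gene ends of known kind near members, 510 were starts and 67 were ends, so 88.4% were starts. At regions near 1 gene, 719 of 731 ends (98.4%) were starts.

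Median folds of the main arrangements were close. They were 7.73 and 8.73 for start to start and 8.21 and 8.63 for start to end in replicates 1 and 2, and the interquartile ranges overlapped. The share at an IDR of 0.05 or lower was 43.9% and 49.0%.

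At regions shared by a start and an end, most summits lay by the start. Among the 49 start to end regions, the summit was nearer to the start in 45 in replicate 1 and in 44 in replicate 2. The median distance was 45 bp and 34 bp to the start, against 454 bp and 427 bp to the end. The exceptions in replicate 2 were at Ecsit and Zfp653, at Ube2m and Chmp2a, at Commd3 and Bmi1, and 2 regions at Gm20783 and LOC108167694. At Ecsit, whose product acts in complex I assembly, the end was 16 bp and the start of Zfp653 24 bp away, so the difference was small. At Commd3 and Bmi1, a Polycomb gene, the summit lay 272 bp from the end of Commd3 and 1059 bp from the start of Bmi1.

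Start to start regions also had summits close to a start. The nearer start lay at a median distance of 32 bp from the replicate 1 summit and 30 bp from the replicate 2 summit, and the farther one 170.5 bp and 178.5 bp. In 178 of the 198 regions the same start was the nearer one in both replicates. Summits lay on both sides of the nearer start, after it in 86 of the 198 regions in replicate 1 and 83 in replicate 2. The median position was -7 bp in replicate 1 (interquartile range -38 to 25) and -5 bp in replicate 2 (-36.5 to 20), where negative means upstream. Around the starts of single-gene regions the medians were -8 bp in each. Over all 343 members, 276 (80.5%, Wilson interval 75.9 to 84.3) had a gene end within 100 bp of the replicate 2 summit, and 111 (32.4%) had ends of both genes within that distance. For regions near 1 gene end, 613 of 906 (67.7%, 64.6 to 70.6) had it within 100 bp. The members could meet this distance at more than 1 gene, which the single-gene regions could not.

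The start to start regions differed in the gap between the starts. In 79 of the 198 regions the spans of the genes overlapped or touched. In 66 the starts were up to 100 bp apart, in 37 they were over 100 and up to 300 bp apart and in 16 over 300 and up to 1000 bp apart. Of the 119 regions with separate spans, the summit fell between the starts in 59 in replicate 1 and 62 in replicate 2, and inside one of the genes in the others. At gaps over 300 bp, summits did not sit midway: the nearer start was a median of 51 bp and 32 bp away, and the farther one 419.5 bp and 426 bp. In 14 and 15 of these 16 regions the summit was in the gap.

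**Figure D2:**
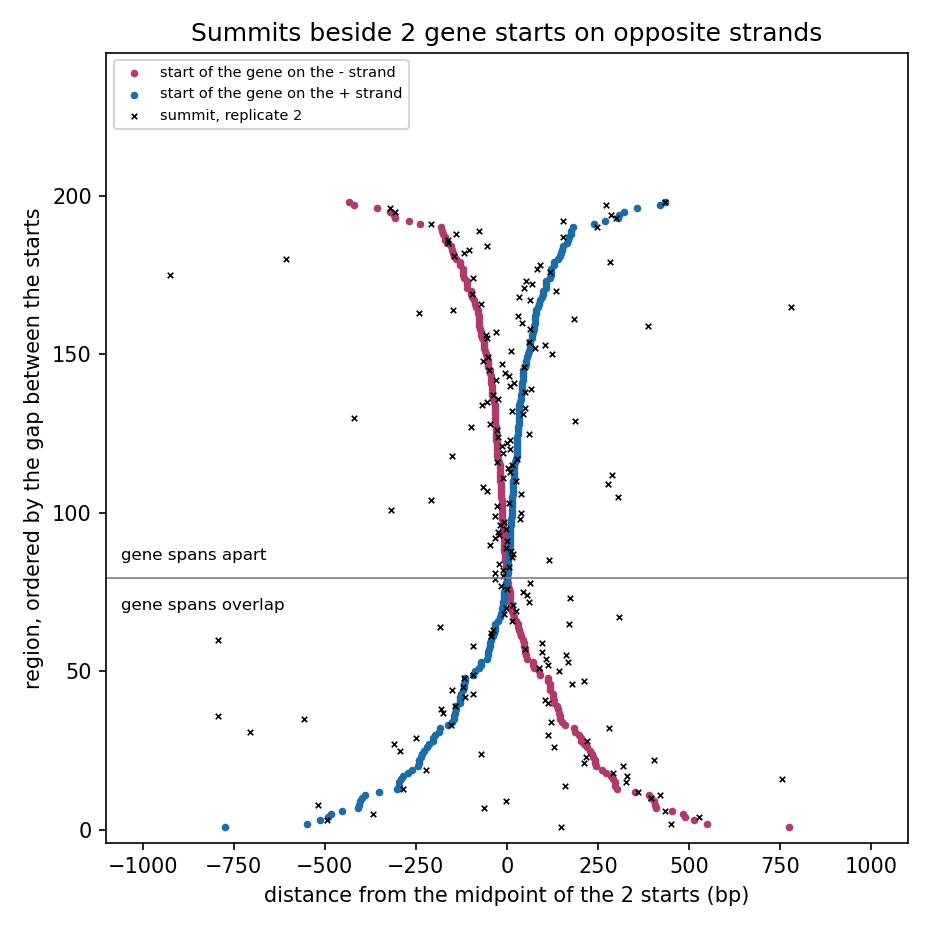
Each of the 198 start to start regions is a row, ordered by the gap between the starts, with the + strand start in blue, the - strand start in red and the replicate 2 summit as a cross; the x axis is the distance from the midpoint of the starts in bp. The crosses follow the lines of starts, and 140 of 198 lie within 50 bp of one, while a small number lie well outside the pair.

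Pairs with the smallest and the widest distances between starts are given as examples. The widest ones given here have overlapping spans, so they are not among the regions with separate spans described above. The starts of Rprd1b and Tti1 fall on the same base, and the summit lay 33 bp from it (folds 15 and 11.0). At 1110032A03Rik and Fdxacb1, 2 bp apart, the folds were 7.34 and 4.38, and at Zcrb1 and Pphln1, 4 bp apart, 7.29 and 12.0. The widest distance was at Nfkbil1 and Atp6v1g2, whose overlapping spans put the starts 1550 bp apart. There the summit was 627 bp and 923 bp from the starts, and so close to neither (folds 11.1 and 11.3). At Slc33a1 and Gmps, 1100 bp apart, the summit lay 100 bp from the first (4.95 and 8.76). At Gm4275 and Ate1, 1028 bp apart, it lay 21 bp from the start of Gm4275.

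The members could be set against all neighbouring genes in the genome. There were 3541 pairs of protein-coding genes with ends within 1 kb of each other, and 338 of them (9.55%) had a region near an end of both. Of 896 start to start pairs, 198 had one (22.1%, Wilson interval 19.5 to 24.9). Of 506 start to end pairs, 45 did (8.89%, 6.71 to 11.7), and of 725 end to end pairs, 3 did (0.414%, 0.141 to 1.21). The share of start to start pairs was 24.4% at gaps up to 100 bp, 20.7% at gaps over 100 and up to 300 bp, and 20.1% at wider ones, with overlapping intervals.

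**Figure D3:**
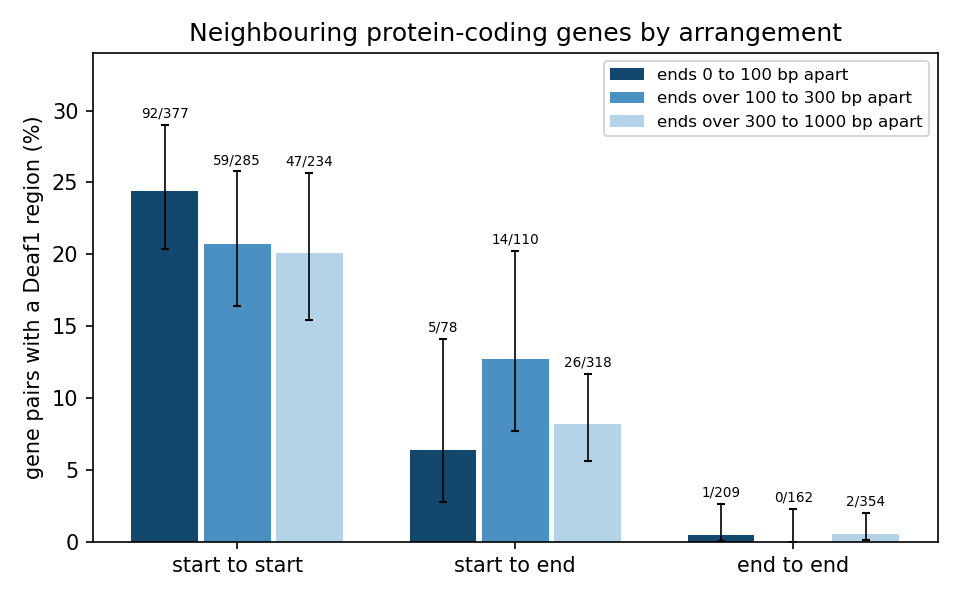
Percent of neighbouring gene pairs that have a Deaf1 region within 1 kb of an end of both genes, by arrangement and by the distance between the ends; error bars are Wilson 95% intervals and the labels give pairs with a region over all pairs. Start to start bars stand at 20.1% to 24.4%, start to end bars at 6.41% to 12.7%, and end to end bars at or below 0.565%.

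The same pairs were also counted by start. A region lay within 1 kb of 394 of the 1782 starts that face another start within 1 kb (22.1%). These starts belong to start to start pairs like those above, so this share restates that result. Both starts of a pair can be credited with the same region and are not separate units. Among 12902 genes with no other gene's end within 1 kb, 541 had a region at the start (4.19%). A paired start can also be credited with a region that sits on its neighbour, which an isolated start cannot. CpG content moved with this difference: CpG-poor starts (0 to 9 CpG in the 300-base promoter window) had a region in 7.64% of paired and 0.316% of isolated cases. At 10 to 19 CpG the shares were 21.8% and 6.55%, at 20 to 29 they were 25.6% and 9.38%, and at 30 or more 22.2% and 6.68%. Paired starts were thus the higher in each of the 4 CpG classes.

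The 343 regions named 671 genes in 334 different sets. Of all 21631 protein-coding genes, 3.1% had a member region, and 7.07% had any region within 1 kb of an end. Among 877 genes of 13 lists, 74 (8.44%) had a member region and 205 (23.4%) had any region. The 69 member regions at listed genes had median folds of 7.65 and 8.29, close to those of all members. Genes of the lists were chosen with earlier results of these data known, and no list was tested.

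**Figure D4:**
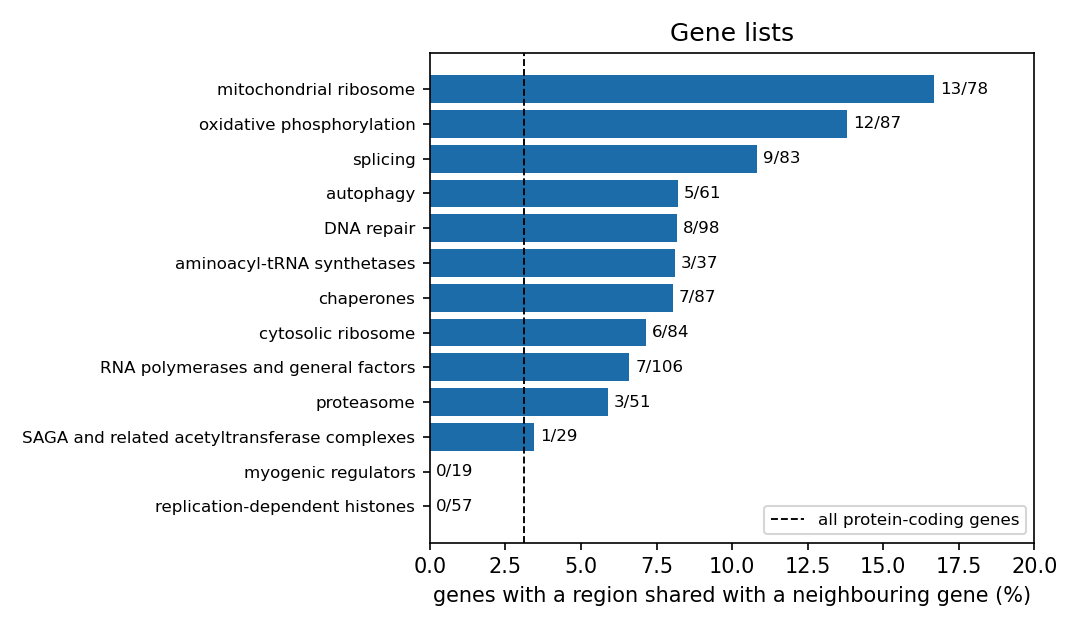
Percent of the genes of each list that have a Deaf1 region shared with a neighbouring gene, with the counts beside each bar; the dashed line is the 3.1% of all protein-coding genes. Mitochondrial ribosome (13 of 78) and oxidative phosphorylation (12 of 87) stand at the top. Myogenic regulators (19 genes) and replication-dependent histones (57 genes) have none, where a share of 3.1% would also be few genes.

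A gene can have a member region only where an end of another protein-coding gene lies nearby. Genes with such a neighbour were not counted per list, so the shares also depend on how the genes of each list are arranged. Of the 13 lists, the 2 of mitochondrial genes had the highest shares of genes with a member region. This order did not hold for regions of any kind, where the cytosolic ribosome stood highest (36.9%), above the mitochondrial ribosome (33.3%), the aminoacyl-tRNA synthetases (32.4%), splicing (30.1%), the proteasome (29.4%) and oxidative phosphorylation (24.1%). It also changed without replicate 1, where 9 of 37 synthetase genes and 17 of 87 oxidative phosphorylation genes had a member region. Of 78 genes of the mitochondrial ribosome, 13 (16.7%) shared a region with a neighbour. Mrpl43, paired with the mitochondrial helicase gene Twnk, had folds of 15.3 and 18.5, and Mrpl44 of 20.7 and 9.25. Mrpl47 and Ndufb5, a complex I subunit, shared 1 region (10.3 and 8.72). Oxidative phosphorylation gave 12 of 87 genes (13.8%), among them Ndufs1, Ndufs3 (13.6 and 13.3), Ndufb9 (10.9 and 13.5) and Uqcrh of complex III (6.60 and 7.95). Atp5j of the ATP synthase shared its region with Gabpa, which encodes an ETS-family factor, with folds of 7.31 and 9.04.

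Genes of RNA and protein synthesis were also among the members. Splicing gave 9 of 83 genes (10.8%), with U2af2 at the top and Snrpa, of the U1 particle, at the bottom (6.0 and 3.60). The RNA polymerases and general factors gave 7 of 106, including the Mediator genes Med8, Med19, Med20 and Med31. The cytosolic ribosome gave 6 of 84, such as Rpl37 (10.4 and 11.2) and Rpl9 (7.50 and 3.77), and the chaperones 7 of 87. Hspe1 and Hspd1, which encode the mitochondrial co-chaperonin and chaperonin, shared 1 region with folds of 4.68 and 5.96. This pair, and the cytosolic and mitochondrial histidyl-tRNA synthetases Hars and Hars2 (5.19 and 11.2), were the pairs in which both genes belonged to the same list. The aminoacyl-tRNA synthetases gave 3 of 37 genes in all.

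Autophagy, named in the title of the series, gave 5 of 61 genes (8.20%), and 13 of 61 (21.3%) with regions of any kind. The region between Atg2b, a lipid transfer protein of the growing autophagosome, and Gskip had folds of 7.09 and 13.6, and its summit lay 37 bp from the Atg2b start. Vps16, of the complexes that tether vesicles to the lysosome, shared a region with Pced1a with folds of 10.7 and 4.93. The others were weak in both libraries. Atg12, a ubiquitin-like modifier, and Ap3s1 had folds of 4.40 and 4.31. The autophagy receptor Nbr1 and the DNA repair gene Brca1 faced each other across 152 bp with folds of 3.92 and 4.56. At Gabarap, an Atg8-family gene, the folds were 3.85 and 3.23, and the replicate 2 summit lay 534 bp from the end of that gene and 283 bp from the start of Phf23. Of the 5 autophagy regions, that at Atg2b alone reached an IDR of 0.05.

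The proteasome gave 3 of 51 genes. Psme2, a subunit of the PA28 activator, faced Rnf31, a ubiquitin ligase subunit, with folds of 7.85 and 9.71; the replicate 2 summit lay 7 bp from the Rnf31 start and 605 bp from that of Psme2. Psmc2, an ATPase of the regulatory particle, and Dnajc2 had folds of 9.28 and 6.67. Psmd13, of the same particle, and Sirt3, a mitochondrial deacetylase, had folds of 6.78 and 7.69. These 3 were of middling strength among the members.

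DNA repair gave 8 of 98 genes (8.16%). Fancd2, of the Fanconi anaemia pathway, was paired with Emc3 with folds of 7.70 and 9.49, and Xrcc4, of non-homologous end joining, was paired with Tmem167 with folds of 5.75 and 10.5. Eme1, a nuclease subunit, was paired with the mitochondrial ribosomal gene Mrpl27 (9.63 and 5.49). Rpa3, of the single-strand binding complex, had folds of 7.65 and 6.67, and the glycosylase gene Nthl1 shared a region with Tsc2, an inhibitor of mTORC1 signalling (8.10 and 5.59). Dclre1b had folds of 6.60 in both, and the helicase gene Recql4 of 6.33 and 3.30. The other was Brca1, given above. Of these, the regions at Fancd2 and Xrcc4 reached an IDR of 0.05. Supt7l was the single gene of 29 in the SAGA list (4.65 and 6.92), and none of 19 myogenic regulators or 57 replication-dependent histone genes had a member region. Over all protein-coding genes the share was 3.1%, at which lists of these sizes would hold few such genes. These low counts are therefore not a result about the lists.

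Some sets of genes held more than 1 region. Of the 334 gene sets, 9 held 2 regions, and 7 regions lay near 3 genes. The pair Zfp646 and Zfp668 had folds of 6.78 and 14.3 in replicate 1 and 7.69 and 18.5 in replicate 2 at regions 710 bp apart. In 7 of the 9 sets the same region was the stronger in both libraries. At Gnl1 and Prr3 (10.7 and 8.25 in replicate 1, 9.74 and 15.5 in replicate 2) and at Ccdc77 and Kdm5a (7.97 and 8.21, then 18.8 and 10.0) the stronger region differed between them. At Gm20604, Gon7 and Ubr7, the region with the most signal near 3 genes, the folds were 14.6 and 17.5, and the summit was within 1 bp of the first pair of starts. At Gm20517, Med20 and Bysl they were 15.1 and 9.26. No region lay near 4 genes.

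The sequence at the summits was read from the RefSeq promoter windows (250 bases before to 50 after each start). Of 469 windows that overlapped a member region, 348 (74.2%) held TTCG on either strand, against 70.3% of 707 windows at single-gene regions and 49.4% of all 21045 protein-coding windows. The windows at members also had more CpG, with a median of 24 against 23 and 13. The full ETS motif CCGGAAGT, searched on both strands, was in 163 of the 469 (34.8%), in 35.9% of single-gene windows and in 5.20% of all windows. Among windows with 10 to 14 CpG, CCGGAAGT was in 34.5% of the 29 at members and 6.51% of all. TTCG was in 58.6% and 59.3% of these. At 15 to 19 CpG the shares were 31.2% and 8.64% for CCGGAAGT and 72.7% and 64.3% for TTCG. At 20 to 24 CpG they were 35.9% and 10.5%, and 71.1% and 66.0%. At 25 to 29 CpG the shares were 40.2% and 10.8% for CCGGAAGT and 80.4% and 68.1% for TTCG. At 30 or more CpG they were 31.2% and 6.61%, and 78.3% and 64.0%. Single-gene windows held CCGGAAGT in 46.8%, 38.4%, 39.5%, 35.6% and 24.1% of these classes in turn. For TTCG they gave 58.4%, 66.2%, 71.2%, 75% and 77.2%.

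Position gave a sharper contrast between these motifs. CCGGAAGT occurred 5.11 times per kb within 25 bp of the replicate 2 summits, 1.99 times at 25 to 50 bp, 0.360 at 50 to 100 bp and 0.181 at 100 to 200 bp. With replicate 1 summits the values were 5.44, 1.66, 0.396 and 0.150. TTCG occurred 3.94 times per kb within 25 bp, then 5.95, 5.93 and 5.28 times, with no peak at the summit. Single-gene regions gave 5.89 per kb for CCGGAAGT within 25 bp and 0.138 at 100 to 200 bp, so this pattern was shared with them.

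**Figure D5:**
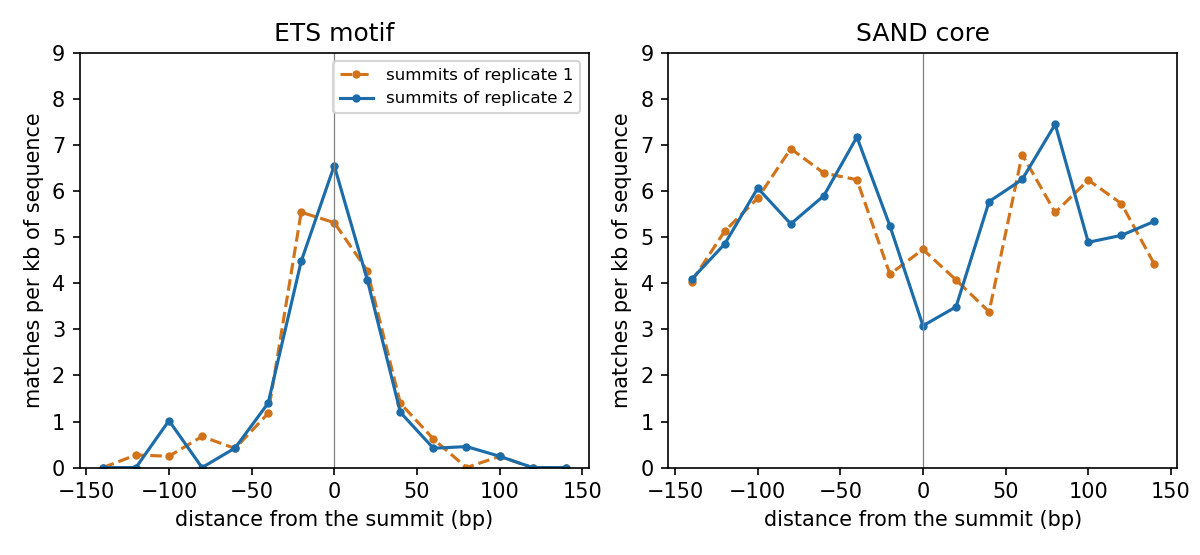
Matches per kb of promoter sequence (y axis) by distance from the summit (x axis, bp, 20 bp steps) for the ETS motif and for the SAND core, TTCG in the text, at member regions; solid and dashed lines are summits of replicates 2 and 1. The ETS motif rises to over 5 per kb at the summit and nears 0 beyond 100 bp, while the SAND core stays between 3 and 8 per kb throughout.

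All short words were also counted around the same summits. The leading words were parts of CCGGAAGT, so this count largely restates the densities above and is not separate support for them. Of 136 words of 4 letters, each pooled with its reverse complement, CGGA ranked first by its density within 50 bp of replicate 2 summits over that farther away (2.28 times). GGAA was next at 2.26 times, and TTCG ranked 65 (0.931 times). With replicate 1 summits TTCG ranked 89. Among 6-letter words the leaders were GGAAGT (7.04 times), CCGGAA (6.99) and CGGAAG (6.27), which overlap one another. The words ACGTCA (4.76) and GACGTC (4.89), parts of the CRE motif TGACGTCA, also ranked among the first 7 with replicate 2 summits, and ranked 7 and 18 with those of replicate 1.

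CGGAAG stood within 60 bp of the summit in 172 of the 220 members whose whole 121 bases were covered by promoter windows (78.2%, Wilson interval 72.3 to 83.1). In 88 of these it occurred at least 2 times. Its nearest match was centred a median of 11.5 bp from the summit. Single-gene regions gave 321 of 410 (78.3%). The last 121 bases of all promoter windows gave 13.6%, and those with 8 to 13 CpG, the interquartile range of the members, 25.1%. TTCG stood in 45.5% of the 220 members, 41.0% of single-gene regions, 25.6% of all windows and 36.7% of those with 8 to 13 CpG. CGGAAG was picked after word densities near these same summits had been seen, and TTCG was not picked that way. The share and distance of CGGAAG at members therefore follow in part from that choice.

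Median folds were close with and without either motif. Members with CCGGAAGT within 50 bp of the summit had median folds of 7.83 and 9.39, and those without it 7.98 and 8.83. With TTCG in that distance they were 8.04 and 8.69, and without it 7.85 and 9.11. With TTCG in that distance 42.5% were at an IDR of 0.05 or lower, against 54.8% without it, and for CCGGAAGT the shares were 48.2% and 51.4%.

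The other 6 motifs were searched on both strands in whole windows of 300 bases. CRE (TGACGTCA) was in 5.33% of the windows at members, 5.09% of single-gene windows and 2.26% of all windows. For YY1 (AAGATGGC) these shares were 6.61%, 5.23% and 3.07%, and for NRF1 (GCATGCGC) 5.12%, 7.21% and 3.54%. For ZBTB33 (CTCGCGAG) they were 2.56%, 1.98% and 1.25%. The GC box (GGGCGG) was in 64.8%, 67.5% and 46.7%, and the CCAAT box (CCAAT) in 39.9%, 36.4% and 38.5%. Shares at members were thus near those at single-gene regions, and lower for NRF1 and the GC box. By distance from the replicate 2 summits, CRE occurred 0.619 times per kb within 25 bp and had no match at 100 to 200 bp. The GC box occurred 5.03 times per kb within 25 bp and 3.80 times at 100 to 200 bp. Single-gene regions gave 0.807 per kb for CRE and 6.59 for the GC box within 25 bp. CpG content was also higher at members than over all windows, and its part in these shares was not tested.

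The rule's threshold cut through a continuous range of distances. Just inside, the second gene was 988 bp from the region at Heatr6 and Wfdc21 (folds 7.85 and 7.95), 976 bp at Mastl and Yme1l1 (11.3 and 13.3) and 956 bp at C1qbp and Dhx33 (8.21 and 11.0). Just outside, it was 1003 bp at Psmg1 and Brwd1 (3.71 and 6.16), 1032 bp at Cactin and Pip5k1c (5.35 and 5.15) and 1034 bp at Thoc5 and Nipsnap1 (8.25 and 4.85). The region at Tmem80, which lies within the span of Deaf1 itself (chr7:141325566-141330465), had folds of 34.6 and 41.4, and its replicate 2 summit was 48 bp from the nearest end of Tmem80. It was near an end of that gene alone, and so not among the 343.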

How the data were processed

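Peaks of 2 Deaf1 ChIP libraries and the combined list of the pair were used, and groups came from the sample titles. BWA 0.7.17-r1198, MACS2 2.1.2, FastQC 0.11.8 and the build mm10 are named in the submitters' processing notes. In the deposited peak lists, fold enrichment is a ratio of stacked ChIP fragments to those the local background predicts, p and q are −log10 values, and the summit is an offset from the peak's start. The combined list's deposited score follows the IDR program's logarithmic scale, where an IDR of 0.05 gives 540 and one of 0.01 gives 830. Its 6 columns of values for single samples were not used.

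Depth of the libraries is not given in the files used. Fragment counts at summits were recovered from fold and p by the MACS2 formula, in 100% of peaks, and the lowest background was 1.80 and 2.09 fragments in replicates 1 and 2. Regions were joined to 21631 protein-coding genes of a RefSeq table on GRCm38.p6 that gives 1 span per gene. Strand came from the RefSeq promoter table, which holds 17274 of these genes and 554 of the 671 at members. Of the genes in it, 77.1% had a start within 100 bp of their span's start, taking the nearest start of each gene. Members matched to no window have no sequence here. Wilson intervals (95%) cover counting error only. The procedures were tested on simulated data with known answers, using Python 3.11.15, numpy 2.4.6, pandas 2.3.3, scipy 1.17.1 and matplotlib 3.10.9.

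The members, the 13 gene lists and the 8 motifs were chosen with earlier results of these data known. Named were the 10 largest mean folds, the 5 highest and 3 lowest scores (ties by fold), regions at autophagy, proteasome and DNA repair genes (up to 8 per list), the region at Deaf1 and Tmem80, the 3 largest ratios between replicates in each direction, the 3 smallest and largest gaps of start to start pairs, and the 3 regions on each side of 1 kb. Other list genes, sets with several regions, exceptions among start to end regions and the word CGGAAG were picked after their values were seen. Alternatives varied the distance (500 bp, 2 kb), the thresholds, the replicate, the measure of strength, the genes counted and the motif window. Restriction to regions of at most 1 kb was added after seeing the data.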

Additional observations from a re-analysis of the deposited data

How the results depend on the processing

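The number of members was 283 at 500 bp and 445 at 2 kb from a gene end, and 160 where an IDR of 0.05 or lower was required. In place of the combined list, the peaks of single replicates gave 389 to 581 members, by construction, since those lists are longer. The median fold, 8.33 as the mean of the replicates' medians, was 10.3 at the IDR threshold and 7.36 to 7.43 with 1 replicate left out. Counted as fragments at the summit it was 30. The share at an IDR of 0.05 or lower was 52.3% among regions with −log10 q of at least 5 in both replicates. The start to start share, 78.0%, was 83.7% at 500 bp and 64.5% at 2 kb, since a wider window reaches more ends. TTCG was in a promoter window of 224 of 277 members (80.9%), against 461 of 650 regions near 1 gene end (70.9%) and 49.4% of all windows. A member can overlap the windows of more than 1 gene, which gives it more sequence to match. The share of members was 44.8% when only the 100 bases before the start were read, and 20.9% when 2 copies within 20 bases were required. These alternatives were not read for the other sets. Listed genes with a member region, 74 in all, numbered 25 at the IDR threshold and 77 to 118 with 1 replicate left out, and 1 autophagy gene in place of 5 remained listed at the IDR threshold. Of the main results' values under an alternative, 13 moved by more than the spread between replicates, the Wilson interval or 1.5 times, and 43 did not. No paired analysis was possible because the inputs have no peak list here and the ChIP libraries form 1 group. Depth limits the weakest members: a summit of 26 fragments, as at the median of replicate 1, has a wide counting error.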

Other observations

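Non-coding genes were also looked for at these regions. An end of a non-coding gene lay within 1 kb of 17 of the 343 regions (4.96%, Wilson interval 3.12 to 7.79), against 172 of 906 regions near 1 gene end (19%) and 59 of 296 near none (19.9%). Of the 17, 12 were near a long non-coding RNA, 3 near a microRNA, 1 near a small nucleolar RNA gene and 1 near a small nuclear RNA gene. The long non-coding RNA 2010320M18Rik lay at the region of Pik3r2 and Mast3. Rnu7, the RNA of the particle that processes histone mRNA, lay by the region of Grcc10 and Atn1, with folds of 3.03 and 8.22. Mir6936 lay at Sirt7 and Mafg (7.50 and 8.67). These differences were not tested.

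Members occurred on all 20 chromosomes examined, with 32 of 109 regions on chromosome 7, 31 of 126 on chromosome 2 and 29 of 129 on chromosome 11. Chromosome 12 had 18 of 49, and X had 1 of 17.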
